A study of Homo sapiens with 3 samples.

Results

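The hemidesmosome and laminin 332 genes are 9 genes that together encode most of the structure by which a basal keratinocyte holds on to its basement membrane. They were chosen by name, as the rows of the deposited count table whose Ensembl identifiers map to DST, PLEC, COL17A1, ITGA6, ITGB4, CD151, LAMA3, LAMB3 and COL7A1. All 9 were found among the 58735 genes of the table, and all 9 are among the 14709 genes that reached 1 CPM (count per 1000000 counts of the library) in 1 or more libraries, called measured genes here. The cells were HaCaT, a human skin keratinocyte line that is immortalised and, per the labels, of wild-type genotype, and 3 RNA libraries were sequenced. The control was exposed to no particles, the CB cells to carbon black at 25 µg/mL and the S1650b cells to the particulate sample S1650b at 50 µg/mL, each for 24 h. The particles were given in medium without serum, and the labels do not say whether the control medium was changed in the same way. The 2 particle doses differ by mass, so differences between the particle libraries are also differences of dose. Each group holds 1 library, so no difference below has a replicate check and no P value is given.

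In stratified epithelia the hemidesmosome links keratin filaments inside the cell to laminin outside it. On the inner side, plectin (PLEC) and the epithelial form of dystonin (DST) bind keratin filaments. In the membrane, integrin α6β4 (ITGA6 and ITGB4), collagen XVII (COL17A1) and the tetraspanin CD151 connect that plaque to the matrix. The extracellular ligand is laminin 332, whose chains include α3 (LAMA3) and β3 (LAMB3). Collagen VII (COL7A1) forms the anchoring fibrils that tie laminin 332 to the dermis below. Loss of several of these genes, each on its own, causes forms of epidermolysis bullosa, in which skin blisters at the basement membrane.

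The libraries hold between 20417744 and 20946139 gene counts. Keratinocyte identity was checked with 8 keratinocyte genes, all with counts in every library, which cannot tell HaCaT from other keratinocytes. Levels are in FPKM, the deposited values, fragments scaled to gene length and to library size. Among them TP63, the transcription factor of basal epithelia, had 19.1 FPKM in control cells, 22.7 with CB and 23.7 with S1650b. Those 8 genes summed to 4795 FPKM in control cells, 4821 with CB and 2233 with S1650b. Markers of other cell types were low: 7 fibroblast genes summed to between 1.5 and 9.69 FPKM, 7 endothelial genes to between 4.73 and 8.72, 6 melanocyte genes to between 1.62 and 1.96 and 7 immune genes to between 1.30 and 3.61. The melanocyte genes TYR, TYRP1 and DCT, the immune gene CD68 and the endothelial genes KDR and TEK were at 0 counts in all libraries. The fibroblast genes COL1A2, PDGFRA and PDGFRB were at 0 in the control. Fibroblast genes had their highest sum in the control and their lowest in S1650b, and their part in the results below was not tested. In bulk RNA, fewer cells of a kind and less RNA per cell cannot be told apart.

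Per unit of length, the 9 genes covered a wide range in the control library. LAMB3 was the highest, at 213 FPKM, which made it number 202 of the 14709 measured genes. It was followed by COL17A1 at 159.8, ITGB4 at 135, CD151 at 93.2, PLEC at 67.9, ITGA6 at 41.7, COL7A1 at 16.3, LAMA3 at 8.86 and DST at 0.876. With 1 library per group the spread between cultures is unknown, so neighbours in this order cannot be separated. The summed counts of the 9 genes were 0.497% of all counts in control cells (exact Clopper-Pearson 95% interval 0.494 to 0.500), 0.499% with CB (0.496 to 0.502) and 0.609% with S1650b (0.606 to 0.613). These and all other intervals here cover counting error only, not differences between cultures. Without molecular identifiers, PCR copies of 1 molecule are counted as separate reads, so the intervals may be too narrow. The shares are of total counts, while the folds below use another scaling (TMM, explained there). Under total-count scaling each log2 fold of S1650b against the control is 0.20 higher than under TMM. The higher share in S1650b therefore depends in part on the scaling. The FPKM of a gene depends on the length the authors divided by. For every measured gene with counts in the control, that length was, up to 1 scale factor common to all genes, within 1% of the summed exons of all its annotated transcripts in GENCODE 29. For DST this sum is 42341 bp while its longest annotated transcript has 22431 bp, and for LAMA3 the values are 14678 and 10661 bp, so division by the length of 1 transcript would give both a higher FPKM.

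**Figure D1:**
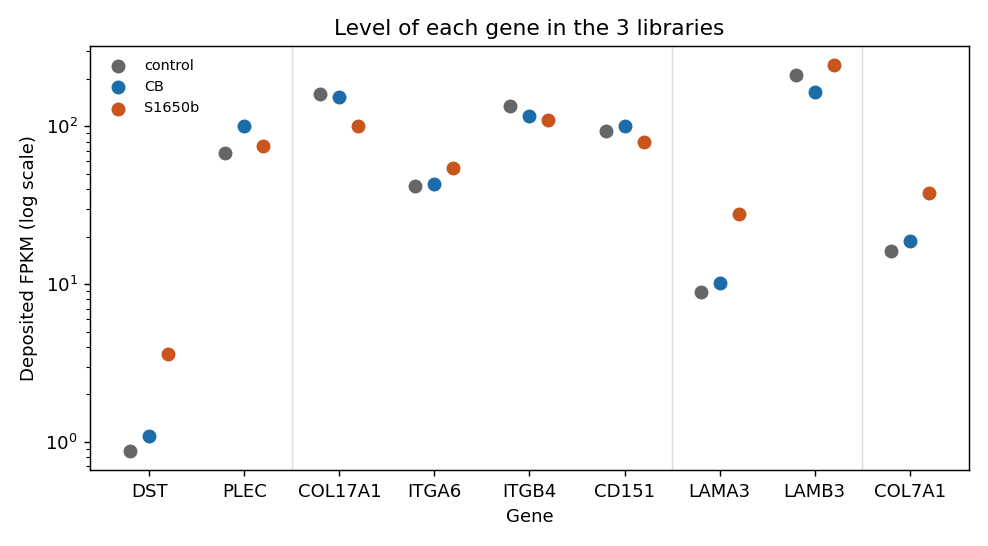
Deposited FPKM (log axis) of the 9 genes in the control, CB and S1650b libraries, 1 point per library, ordered by role from plaque to anchoring fibril. DST, LAMA3 and COL7A1, the lowest 3 genes in the control, have clearly separate S1650b points above the other libraries, while COL17A1 has its S1650b point below them.

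Folds are ratios of CPM scaled by TMM (the trimmed mean of M values, which corrects for library composition), each with an exact 95% conditional binomial interval. A gene was called higher or lower when its fold reached 1.5 and its interval excluded 1 in the same direction. In CB against the control, 0 of the 9 genes were called higher and 0 lower, where 4.70% of all measured genes were called higher and 10.7% lower. The members ranged from a log2 fold of −0.44 (LAMB3) to 0.50 (PLEC), with a median of 0.03 beside −0.01 over all measured genes. In S1650b against the control, DST, LAMA3 and COL7A1 were called higher and COL17A1 lower, 3 and 1 of 9, where 22.0% of all measured genes were called higher and 19.4% lower. The median log2 fold of the members was 0.20 and that of all measured genes −0.04. In S1650b against CB, DST, LAMA3, COL7A1 and LAMB3 were called higher and 0 lower, where the shares of all measured genes were 26.3% and 20.6%. Calls in both directions were thus common among all genes in S1650b, and the members' counts are to be read against those shares. CB and S1650b share the control library.

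**Figure D2:**
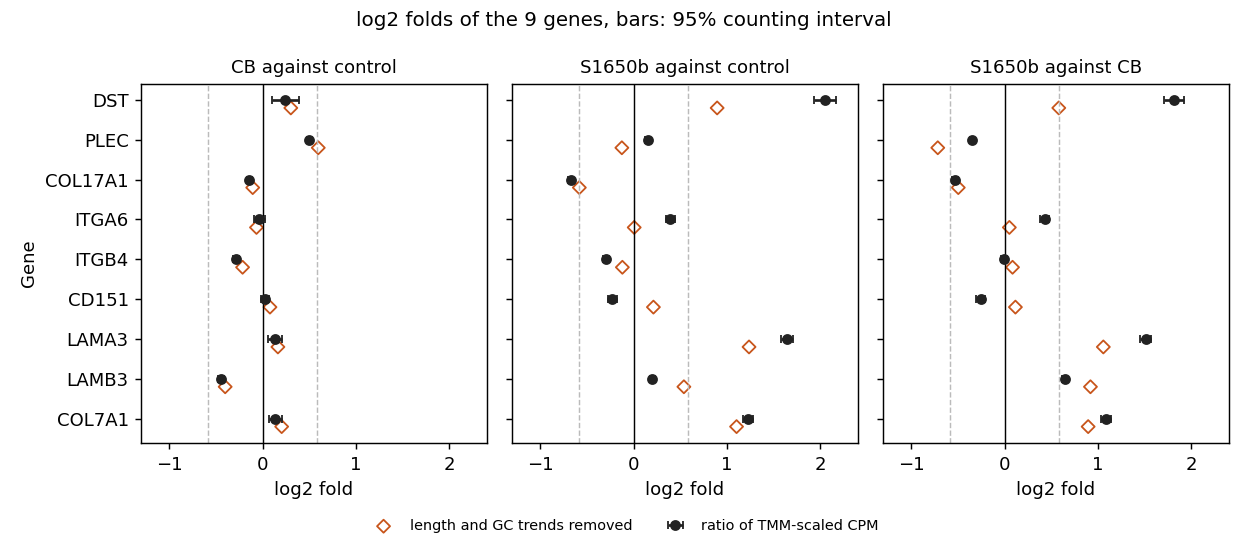
log2 folds of the 9 genes in each comparison (filled points, ratios of TMM-scaled CPM, with 95% counting intervals) and the same with the trends on gene length and GC content removed (open diamonds). Dashed lines mark folds of 1.5. In CB against control the filled points lie between −0.44 and 0.50, inside the dashed lines, and in S1650b against control DST, LAMA3 and COL7A1 lie beyond the upper line and COL17A1 beyond the lower line.

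The plaque genes differed from each other in both particle libraries. DST (ENSG00000151914, GRCh38 chromosome 6, 56457987 to 56954628, minus strand) had 735 counts in control cells, 888 with CB and 3463 with S1650b, or 37.4, 44.2 and 155 TMM-scaled CPM. The S1650b library was high and the other libraries lay close together. DST was 4.15-fold higher in S1650b than in the control (3.83 to 4.50), at percentile 98.9 of all measured genes, and 3.51-fold higher than in CB (3.26 to 3.78). Its fold in CB was 1.18 (1.07 to 1.31). These counts are per gene, over 35 annotated transcripts, and do not separate the epithelial form of DST from its other forms. PLEC (ENSG00000178209, chromosome 8, 143915147 to 143976734, minus strand) had 22859, 33014 and 28805 counts in the control, CB and S1650b, or 1162, 1642 and 1289 TMM-scaled CPM. Here the CB library was the highest. The PLEC fold was 1.41 in CB (1.39 to 1.44), under the rule but at percentile 91.2 of all genes, and 1.11 in S1650b (1.09 to 1.13).

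Of the 4 transmembrane genes, COL17A1 was called in S1650b against the control and ITGA6, ITGB4 and CD151 were not. COL17A1 (ENSG00000065618, chromosome 10, 104031286 to 104085957, minus strand) had 22367 counts in control cells, 20711 with CB and 15905 with S1650b, or 1137, 1030 and 712 TMM-scaled CPM. The control and CB libraries were close and S1650b was low. It was 1.6-fold lower in S1650b (1.56 to 1.63), at percentile 16.4, and 1.10-fold lower in CB (1.08 to 1.12). With total-count scaling its log2 fold in S1650b was −0.47 in place of −0.68, which is no longer past the rule, and with the length and GC trends removed it was −0.58, also not past it. With total-count scaling ITGA6 was called higher instead, at a log2 fold of 0.59 against the control and 0.62 against CB.

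The subunits of integrin α6β4 had folds on opposite sides of 1 in S1650b, a contrast that was not there once the GC trend was removed. ITGA6 (ENSG00000091409, chromosome 2, 172427354 to 172506282, plus strand) had 5404, 5391 and 8058 counts, or 275, 268 and 361 TMM-scaled CPM in the control, CB and S1650b. The S1650b library was the highest, with a fold of 1.31 against the control (1.27 to 1.36), while CB gave 0.976 (0.940 to 1.01), an interval that includes 1. ITGB4 (ENSG00000132470, chromosome 17, 75721328 to 75757818, plus strand) had 18101, 15192 and 16756 counts, or 920, 756 and 750.1 TMM-scaled CPM. For ITGB4 the control was the highest library and the particle libraries were near each other. ITGB4 was 1.22-fold lower in CB (1.19 to 1.24) and 1.23-fold lower in S1650b (1.2 to 1.25), and its fold between the particle libraries was 0.993 (0.971 to 1.01). In S1650b against the control, the log2 folds were 0.39 for ITGA6 and −0.29 for ITGB4, and 0.08 and 0.10 with the GC trend removed. With only the length trend removed they were 0.26 and −0.45, still on opposite sides. With both the length and GC trends removed they were 0.01 and −0.12. CD151 (ENSG00000177697, chromosome 11, 832843 to 839831, plus strand), which binds laminin-binding integrins laterally, had 7269, 7565 and 7038 counts, or 369, 376 and 315 TMM-scaled CPM. The CD151 values lay close together, with a fold of 1.02 in CB (0.986 to 1.05) and 0.853 in S1650b (0.825 to 0.881). No source used here says whether reads were counted by strand. Exons of other genes overlap 5.37% of ITGA6, including ITGA6-AS1, and 7.57% of CD151, mainly POLR2L, and at most 0.325% of each of the other 7 genes.

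The laminin 332 genes LAMA3 and LAMB3 were on opposite sides of the control in CB and both above it in S1650b, by very different folds. LAMA3 (ENSG00000053747, chromosome 18, 23689443 to 23956222, plus strand) had 2577 counts in control cells, 2891 with CB and 9161 with S1650b, or 131, 144 and 410.1 TMM-scaled CPM. As for DST, the S1650b library was high and the other libraries were close. LAMA3 was 3.13-fold higher in S1650b than in the control (3.0 to 3.27), at percentile 97.2, and 2.85-fold higher than in CB (2.73 to 2.97). In CB its fold was 1.10 (1.04 to 1.16). LAMB3 (ENSG00000196878, chromosome 1, 209614870 to 209652466, minus strand) had 19764, 14836 and 25757 counts, or 1005, 738 and 1153 TMM-scaled CPM. The CB library was low for LAMB3. It was 1.36-fold lower in CB than in the control (1.33 to 1.39), had a fold of 1.15 in S1650b (1.13 to 1.17) and was 1.56-fold higher in S1650b than in CB (1.53 to 1.59). That call ended with deposited FPKM in place of TMM-scaled CPM, where the log2 fold was 0.57 and not 0.64.

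COL7A1 (ENSG00000114270, chromosome 3, 48564073 to 48595267, minus strand), the anchoring fibril gene, had 3568 counts in control cells, 4009 with CB and 9463 with S1650b, or 181, 199 and 424 TMM-scaled CPM. It shared with DST and LAMA3 the order of control, CB and S1650b, with S1650b set apart. COL7A1 was 2.34-fold higher in S1650b than in the control (2.25 to 2.43), at percentile 92.1, and 2.12-fold higher than in CB (2.05 to 2.20). Its fold in CB was 1.10 (1.05 to 1.15).

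The ratios between partner genes, taken per length from the deposited FPKM, moved with these differences. LAMB3 stood at 24.0 times the FPKM of LAMA3 in the control, 16.1 times in CB and 8.80 times in S1650b. The ITGB4 to ITGA6 ratio was 3.24, 2.72 and 2.01 in the control, CB and S1650b. The COL17A1 to COL7A1 ratio was 9.82, 8.09 and 2.63, and the PLEC to DST ratio 77.5, 92.6 and 20.7. The COL17A1 to ITGB4 ratio was 1.18, 1.30 and 0.908. The lowest ratio of each of these 5 pairs was in S1650b. The ITGB4 to CD151 ratio, at 1.45, 1.17 and 1.39, was lowest in CB. The absolute size of a ratio rests on the lengths used, while its order over libraries does not. The ratios restate the folds above, the pairs share genes, and the trends on length and GC content are not removed from them. With both removed, log2 folds in S1650b against the control were 0.01 for ITGA6 and −0.12 for ITGB4, and 1.24 for LAMA3 and 0.54 for LAMB3. They were 0.90 for DST and −0.13 for PLEC, and 1.10 for COL7A1 and −0.58 for COL17A1.

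**Figure D3:**
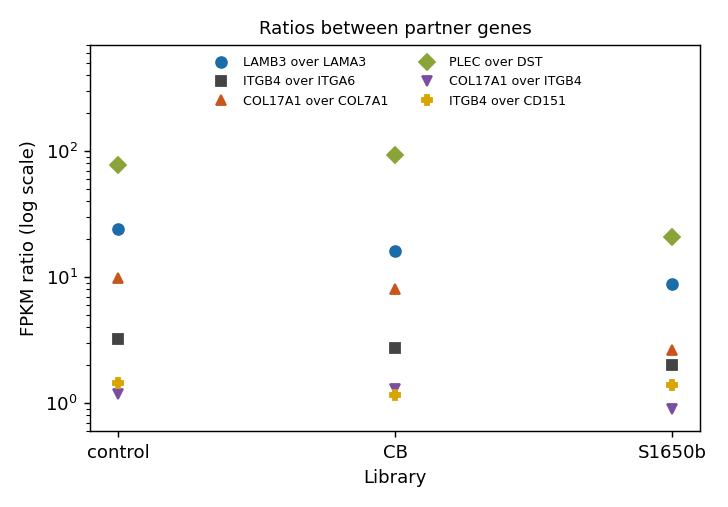
Ratios of deposited FPKM (log axis) for 6 gene pairs in the control, CB and S1650b libraries, 1 point per library. The ratio is lowest in S1650b for 5 pairs, with LAMB3 over LAMA3 at 8.80 there against 24.0 in the control, and lowest in CB for ITGB4 over CD151. Trends on gene length and GC content are not removed.

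The 9 genes differ widely in length and base content, properties on which the S1650b library differed from the control across all genes. When measured genes were cut into 8 bins by length, the median log2 fold of S1650b against the control ran from −0.29 in the bin of shortest genes to 0.48 in the bin of longest genes. Over 8 bins of rising GC content it ran from 0.60 down to −0.43. The corresponding medians of CB ran from −0.10 to 0.01 over length and from 0.05 to −0.08 over GC content. Among the members, DST is both long (42341 bp of exons, with 10 measured genes at least as long, itself included) and low in GC (41.3% in its longest transcript). The lowess trend on length and then GC content had a log2 value of 1.16 at DST in S1650b against the control, and removing it left a fold of 1.86. With so few genes of that length, the trend at DST is thinly supported. LAMA3 (14678 bp, GC 50.7%) had a trend value of 0.41 and kept a fold of 2.36. COL7A1 (11071 bp, GC 64.8%) lies where length and GC trends oppose each other, had a trend value of 0.12 and kept a fold of 2.15. DST, LAMA3 and COL7A1 therefore stayed past the rule of 1.5 with both trends removed. Of all 14709 measured genes, 2373 were then called higher in S1650b against the control and 2353 lower, beside 3236 and 2855 before removal.

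In S1650b against the control the remaining members lay nearer to their trend, at most 0.58 from it on the log2 scale. PLEC (16991 bp, GC 67.0%) had a trend value of 0.28, and its log2 fold in S1650b turned from 0.15 to −0.13 with both trends removed. CD151 turned from −0.23 to 0.21, and ITGA6 went from 0.39 to 0.01. LAMB3 had a trend value of −0.34 in S1650b, and its log2 fold went from 0.20 to 0.54. In CB against the control the trend values at the 9 genes ranged only from −0.10 to 0.03, and their removal took PLEC from 1.41 to 1.51-fold, just past the rule. Of all 14709 measured genes, 758 were then called higher in CB and 1467 lower. Between the particle libraries, both trends removed left LAMA3 at a fold of 2.08, LAMB3 at 1.89, COL7A1 at 1.86 and DST at 1.496, the last just under the rule. PLEC, at 0.609, was then called lower, so LAMB3 and PLEC lay farther from their trend than DST in this comparison. Among all measured genes 3068 were called higher and 2868 lower there with both trends removed.

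**Figure D4:**
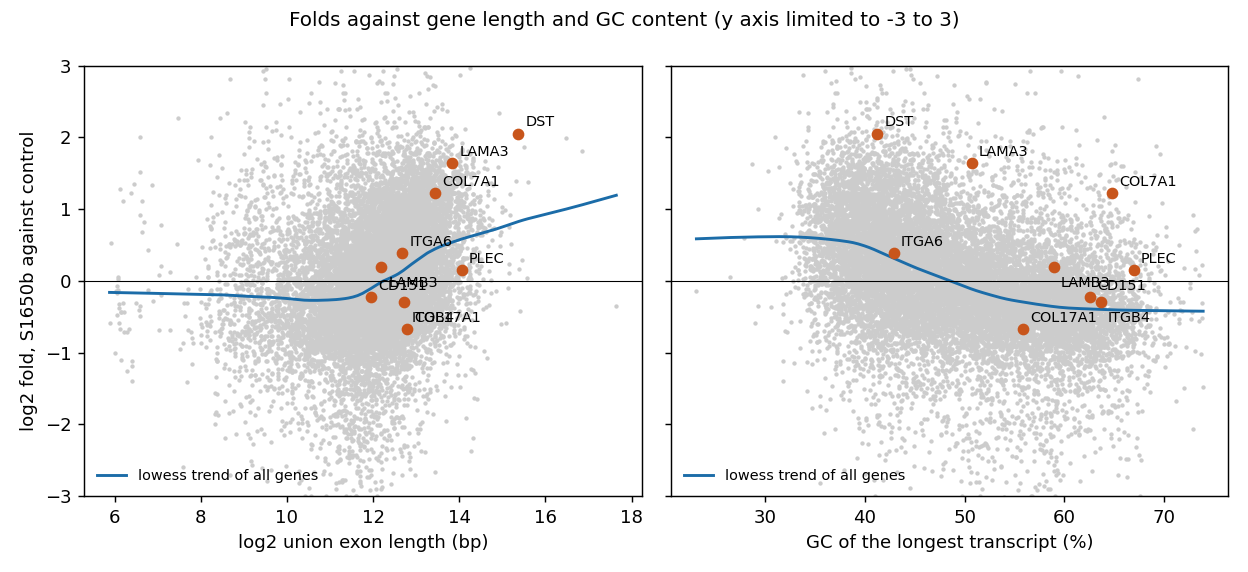
log2 fold in S1650b against control of all measured genes (grey) against log2 of the union exon length and against the GC content of the longest transcript, with the lowess trend of all genes (line) and the 9 genes (labelled points). LAMA3 and COL7A1 lie above the line in both panels and COL17A1 lies below it in both, while ITGA6 lies on or near the line on the GC axis.

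Sequence before the annotated transcription starts was examined because AP-1, a transcription factor of stress and growth responses, is known to act on laminin genes of keratinocytes. RefSeq promoter sequence (GRCh38.p14) was searched for 6 of the 9 genes (COL17A1, COL7A1, DST, ITGA6, LAMA3 and LAMB3), with 11 listed starts. PLEC, ITGB4 and CD151 were not searched. The 250 bases before each start were searched on both strands for the AP-1 letters TGANTCA, the antioxidant response letters TGACNNNGC, the aryl hydrocarbon receptor core GCGTG, the GC box GGGCGG and the E-box CANNTG. The AP-1 and antioxidant letters share their start and can overlap. The AP-1 letters were in 2 of the 11 windows, beside 6.57% of 35116 windows of that length before all listed starts. They occurred 2 times before the LAMA3 start, 125 and 69 bases upstream, and 1 time before the innermost of 3 LAMB3 starts, 67 bases upstream. With 10 bases on each side, both LAMA3 sites overlap an annotated GENCODE 29 exon, and the LAMB3 site does not. The LAMA3 start lies inside the gene, at the short form of the α3 chain that is found in skin. The LAMA3 counts are per gene, over 15 annotated transcripts, and do not separate that form from its other forms. The antioxidant letters were in 0 of the 11 windows (10.9% of all windows), and the receptor core in 1, before an ITGA6 start (32.2% of all windows). The GC box was in 7 (42.6% of all windows) and the E-box in all 11 (61.8%). The windows of the outer LAMB3 starts overlap, so 1 GC box and 1 E-box there were counted in both. A match describes these letters only, and windows without one say nothing about the factor. The LAMA3 sites are shown with 10 bases on each side, and the other sequences as the bases of the window that lie in no GENCODE 29 exon, all 5′ to 3′ on the strand of the gene, with the AP-1 letters in capitals. The first 2 lie at chr18:23872885-23872911 and chr18:23872941-23872967 (plus strand), and the next 4, on the minus strand, at chr1:209651395-209651624, chr3:48595330-48595579, chr6:56642997-56643139 and chr10:104085958-104086130. The DST sequence is that before the innermost of 3 listed starts.
LAMA3 site at 125 bases: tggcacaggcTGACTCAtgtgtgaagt
LAMA3 site at 69 bases: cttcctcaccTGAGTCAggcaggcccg
LAMB3: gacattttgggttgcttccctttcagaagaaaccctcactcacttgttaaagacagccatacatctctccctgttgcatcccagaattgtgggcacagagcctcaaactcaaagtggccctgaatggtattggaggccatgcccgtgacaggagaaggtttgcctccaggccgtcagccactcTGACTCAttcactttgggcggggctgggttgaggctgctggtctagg
COL7A1: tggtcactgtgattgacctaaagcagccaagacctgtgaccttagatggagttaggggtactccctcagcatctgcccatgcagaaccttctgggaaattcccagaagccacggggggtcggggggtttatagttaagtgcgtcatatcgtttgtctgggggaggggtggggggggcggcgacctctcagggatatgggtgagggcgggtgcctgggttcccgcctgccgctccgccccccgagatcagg
DST: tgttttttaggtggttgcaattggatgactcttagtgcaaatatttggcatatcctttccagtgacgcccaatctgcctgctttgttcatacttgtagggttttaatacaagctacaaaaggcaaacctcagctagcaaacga
COL17A1: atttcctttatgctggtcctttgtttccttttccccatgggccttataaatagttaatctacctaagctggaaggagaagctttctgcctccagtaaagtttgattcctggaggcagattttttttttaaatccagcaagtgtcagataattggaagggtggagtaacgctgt

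Genes with the most similar pair of folds (CB and S1650b, each against the shared control) were found by Euclidean distance in log2 units. For LAMA3 these were TTBK2, TRPM7 and SKAP2, at distances of 0.01, 0.01 and 0.02. For COL7A1 they were WDR44, PDZD8 and RLIM, at 0.01, 0.03 and 0.03, and KDF1 and CES2 were among the 3 nearest to COL17A1, each at 0.01. The pattern of DST was the rarest of the 9, with 10 measured genes within a distance of 0.1, of which WIPI1 (18, 22 and 84 counts in the control, CB and S1650b) was nearest. For LAMA3 33 genes lay that close, for COL7A1 70, for COL17A1 166 and for CD151 353. Likeness over 3 libraries is a description of 2 numbers per gene.

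Relatives and partners of the 9 genes were taken from 10 lists of 139 genes, of which 119 were measured. Calls in each list are to be read against those of all 14709 measured genes. In S1650b against the control 22.0% of these were higher and 19.4% lower, and in CB 4.70% and 10.7%. With both trends removed 2373 were higher and 2353 lower in S1650b, and 758 and 1467 in CB. Among the keratins, which fill the inner end of the hemidesmosome, KRT5 and KRT14, the basal pair, were 3.15-fold (3.12 to 3.19) and 2.91-fold lower (2.87 to 2.94) in S1650b. Their folds in CB were 0.844 and 0.961. KRT15, a basal keratin, was 2.75-fold lower in CB and 2.76-fold lower in S1650b. KRT6A, a keratin of stressed epidermis, was 3.89-fold lower in S1650b (3.66 to 4.12). In CB, KRT8 was 1.75-fold and KRT18 1.62-fold higher, a pair known from simple epithelia, and exons of the pair overlap. In all, 5 of 8 keratins were lower and 0 higher in S1650b, and 1 was lower and 2 higher in CB. With both trends removed, 4 were lower and 1 higher in S1650b. KRT14 was then at a fold of 0.520, KRT16 at 0.700 and KRT17, which had a fold of 1.34 before, at 1.93. The FPKM of KRT5 was 12.0 times that of ITGB4 in the control, 12.3 times in CB and 4.67 times in S1650b.

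Integrins outside the hemidesmosome were higher in S1650b in 6 of 10 measured genes and lower in 0 (22.0% and 19.4% of all measured genes). In CB 0 were called in either direction. ITGB6, which pairs with αv, was 5.66-fold higher (5.12 to 6.26), although exons of another gene overlap 20.6% of it. ITGA2, of the collagen-binding integrin α2β1, was 4.93-fold higher (4.63 to 5.25) and ITGAV 3.50-fold (3.34 to 3.67). ITGB1 was 2.01-fold higher (1.94 to 2.08). ITGA3, whose product pairs with β1 to bind laminin 332, had folds of 1.01 in CB (0.987 to 1.03) and 1.03 in S1650b (1.01 to 1.06). The ITGB1 to ITGB4 ratio of FPKM was 0.271, 0.373 and 0.669 in the control, CB and S1650b. With both trends removed, ITGB6, ITGA2 and ITGAV kept folds of 4.4, 3.18 and 2.15, and ITGB1 had 1.45. Of the 6 called genes 4 were still called then, and ITGA1 went from a fold of 1.89 to 0.933. ITGB5 was called higher only then, at a fold of 1.62.

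Among 6 measured laminin chains outside the 9 genes, LAMB1 was 1.80-fold higher in S1650b (1.72 to 1.89). LAMB2 was 2.13-fold lower in CB (2.03 to 2.23) and 1.51-fold lower in S1650b (1.45 to 1.57). LAMB1 stayed higher in S1650b with both trends removed, at a fold of 1.57, and LAMB2 at 0.744 lost its call there. LAMA5, at a fold of 0.637, and LAMA1, at 0.515 on 46 counts against 58, were called lower only then. Of 18 measured basement membrane genes 7 were lower and 1 higher in S1650b, and 4 lower and 1 higher in CB. The shares of all measured genes were 19.4% and 22.0% in S1650b and 10.7% and 4.70% in CB. In S1650b, 6 of the 7 and the 1 higher gene were still called without the trends, and HSPG2 was called lower only then, at a fold of 0.587. FBLN1, a fibulin of the matrix, was 1.84-fold lower in CB (1.7 to 1.99) and 5.72-fold lower in S1650b (5.09 to 6.43). NPNT, a ligand of integrin α8β1, was 2.81-fold lower in CB (2.11 to 3.8) and 2.75-fold lower in S1650b (2.08 to 3.65). FREM2, of the Fraser complex of the basement membrane, had 15, 1 and 31 counts in the control, CB and S1650b, and its ratio in CB (15.3-fold lower, 2.36 to 645) rests on 1 count. SPARC, a collagen-binding matrix protein, was 3.59-fold lower in S1650b (2.11 to 6.36), on 19 counts against 60. The gene called higher was COL4A1 in CB (1.74-fold, 1.62 to 1.86) and TINAGL1 in S1650b (1.75-fold, 1.72 to 1.78), both named after their values were seen. Of 7 fibroblast markers 3 were measured, and in S1650b DCN (1067 counts in the control, 41 in S1650b) and COL3A1 (638 and 83) were lower like FBLN1 and SPARC. COL1A1 (120 and 156) was not called, and LUM, COL1A2, PDGFRA and PDGFRB had at most 9 counts in any library. The part of such RNA in these values was not tested.

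The protein families of plectin, dystonin and CD151 were compared with them. Of 5 other plakins, MACF1, the closest relative of DST, was 2.62-fold higher in S1650b (2.36 to 2.91) and had 1.36 in CB (1.21 to 1.53), and DSP, desmoplakin, was 1.79-fold higher in S1650b (1.73 to 1.86). EPPK1, epiplakin, was 2.47-fold lower (2.03 to 3.02). With both trends removed MACF1 and DSP had folds of 1.39 and 1.34, under the rule, where DST kept 1.86, and EPPK1 stayed lower. Of 16 other tetraspanins 0 were higher and 6 lower in S1650b (22.0% and 19.4% of all measured genes), and 0 and 3 in CB (4.70% and 10.7%). TSPAN1 was 1.68-fold lower in CB (1.61 to 1.74) and 1.97-fold lower in S1650b (1.89 to 2.04), and TSPAN15, a partner of ADAM10, 1.51-fold (1.42 to 1.61) and 2.13-fold lower (1.99 to 2.28). TSPAN12 was 2.4-fold lower in CB (1.33 to 4.52), on 17 counts against 40. CD82 was 2.12-fold lower in S1650b (2.0 to 2.23). Without the trends 7 tetraspanins were lower in S1650b, of which 4 were among the 6. TSPAN1 and TSPAN15 were then under the rule, at folds of 0.689 and 0.687, and CD82 at 0.632 was past it.

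**Figure D5:**
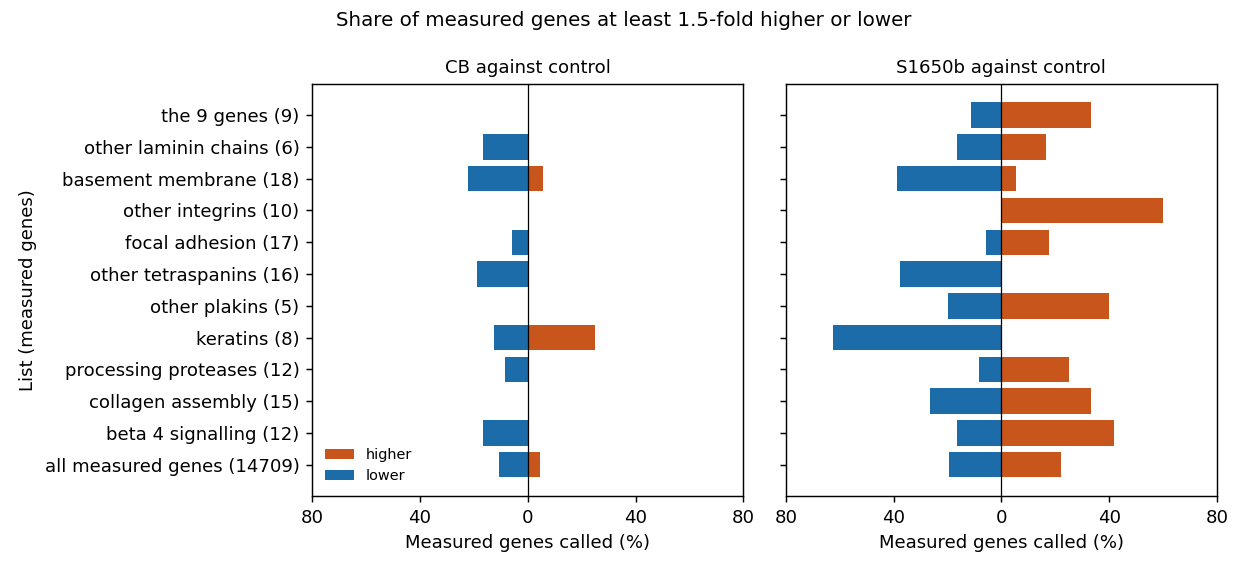
Share of measured genes called higher (right) or lower (left) by at least 1.5-fold in each list, for CB and S1650b against control, with the number of measured genes in parentheses. The bars of all measured genes give the background, 4.70% and 10.7% in CB and 22.0% and 19.4% in S1650b.

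The proteases that cut hemidesmosome and laminin proteins were measured at 12 of 19 genes. BMP1, a procollagen proteinase that matures laminin 332 and collagen VII, was 1.52-fold lower in CB (1.45 to 1.6) and had a fold of 0.902 in S1650b. ADAM9 and ADAM17, which can shed collagen XVII from the cell surface, were 2.08-fold (1.95 to 2.21) and 2.10-fold higher (1.91 to 2.30) in S1650b, and 1.40-fold and 1.17-fold with both trends removed. Exons of other genes overlap 13.6% of ADAM17. MMP7 was 4.0-fold lower in S1650b (3.46 to 4.63). In all 3 proteases were higher and 1 lower in S1650b (22.0% and 19.4% of all measured genes), and 0 and 1 in CB (4.70% and 10.7%). Without the trends, 0 of those 3 higher calls and the 1 lower call in S1650b remained, and the BMP1 call in CB ended. Other proteases were called instead, so that 3 of the 12 were higher and 2 lower in S1650b without the trends.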

How the data were processed

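RNA-seq of 3 HaCaT libraries (control, CB, S1650b; 1 each) was analysed. Per the labels' protocols, Trizol was used for RNA extraction and a NEBNext Ultra kit for library construction. The authors deposited whole-number counts per Ensembl gene and FPKM values. Counts divided by deposited FPKM gave 1 length per gene and library sizes of 0.972 (CB) and 1.14 (S1650b) relative to the control. CASAVA 1.7 and the builds mm8 and mm9 stand in the submitters' processing notes. These are mouse builds, while the identifiers are human. Which aligner, counter and build made the counts was not given in these sources. All 58735 identifiers occur in GENCODE 29 (GRCh38), and 58207 had a symbol.

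From the counts, TMM factors of 0.952 (control), 0.960 (CB) and 1.09 (S1650b) were computed with edgeR 4.0.16 (R 4.3.3) on genes that reached 1 CPM in any library. Clopper-Pearson intervals, lowess trends (span 30%) and figures used Python 3.11.15, scipy 1.17.1 and statsmodels 0.14.6. GC content was known for 14703 measured genes. The interval and calling steps were tested on simulated data. Named genes were the 9 members, KRT5, KRT14, KRT15, ITGA3, ITGB1 and TP63, and up to 3 called genes per list and comparison with the control, ranked by the interval end nearest 1; likeness took the 3 nearest genes. Some genes that this rule picks are not reported here. Alternatives were total-count, DESeq2 and upper-quartile scaling, 5 counts added, other filters, FPKM plus 0.1, a fold of 2 and removal of length and GC trends. The members and lists were chosen with earlier results of these data known.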

Additional observations from a re-analysis of the deposited data

How the results depend on the processing

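Of 270 single-gene log2 folds recomputed under 10 alternatives, 15 had another sign, none of them of a called gene, and 151 lay outside the counting interval. Total-count scaling moved the median of all genes by 0.20 in S1650b against control. Members in CB against control: 1 higher (PLEC) with the GC trend or both trends removed. Members in S1650b against control (3 higher, 1 lower): 4 higher (ITGA6 added) with total counts; 0 lower with total counts, a fold of 2, or the GC trend or both trends removed. Members in S1650b against CB (4 higher, 0 lower): 5 higher with total counts, 3 with FPKM or a fold of 2 (LAMB3 lost) or both trends removed (DST lost); 1 lower with no filter, with FPKM or with both trends removed, and 2 with the length trend removed. Wider lists in CB against control (3 higher, 13 lower of 119): 5 higher with DESeq2 1.42.0 size factors, 6 with FPKM, 0 higher and 6 lower at a fold of 2, and 8 lower at 5 CPM. Wider lists in S1650b against control (26 higher, 28 lower): 15 and 15 at a fold of 2, and 17 higher with the length trend removed. Wider lists in S1650b against CB (29 higher, 26 lower): 17 lower with total counts, 12 and 13 at a fold of 2, 19 higher with the length trend removed, 16 lower with the GC trend removed and 17 higher with both removed. The length and GC alternatives subtract a trend by construction; for the other changes the cause was not tested. No paired analysis was possible because each group holds 1 library, and no library could be left out for the same reason.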

Other observations

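Genes that assemble collagens and genes that signal to or from integrin β4 were also measured. Of 15 measured collagen assembly genes 5 were higher and 4 lower in S1650b (22.0% and 19.4% of all measured genes) and 0 were called in CB. With the length and GC trends removed 2 of the 5 and 2 of the 4 were still called. MIA3, which is needed to export large collagens such as collagen VII from the endoplasmic reticulum, was 2.85-fold higher in S1650b (2.55 to 3.18) and 1.7-fold with the length and GC trends removed. SERPINH1, the collagen chaperone HSP47, was 1.97-fold lower (1.89 to 2.05) in the library where COL7A1 was 2.34-fold higher. TGM2, transglutaminase 2, was 6.53-fold lower (2.23 to 26), on 4 counts against 23. Of 12 signalling genes 5 were higher and 2 lower in S1650b (22.0% and 19.4% of all measured genes), and 0 and 2 in CB (4.70% and 10.7%). With both trends removed all 5 higher calls and 1 of the 2 lower calls in S1650b remained. MET, the receptor of hepatocyte growth factor, was 2.87-fold higher in S1650b (2.72 to 3.04). ERBIN, which binds integrin β4 and ERBB2, was 2.84-fold higher (2.63 to 3.07), and PTPN11, a tyrosine phosphatase, 2.14-fold (2.02 to 2.28). PRKCD, a protein kinase C, was 1.87-fold lower in CB (1.64 to 2.12) and had a fold of 0.680 in S1650b, and FYN, a SRC family kinase, was 1.72-fold lower in CB (1.23 to 2.43) on 57 counts against 96.

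Of 17 focal adhesion genes 3 were higher and 1 lower in S1650b (22.0% and 19.4% of all measured genes), and 0 and 1 in CB (4.70% and 10.7%). FERMT2 was 2.45-fold higher (2.01 to 3.0), PTK2, the focal adhesion kinase, 2.06-fold higher (1.96 to 2.16) and TNS1 2.06-fold lower (1.63 to 2.60). With both trends removed none of the 3 higher calls remained (FERMT2 1.46, PTK2 1.28, PARVA 0.983), while TNS1 stayed lower and ILK was higher in S1650b at a fold of 1.77. ILK, integrin-linked kinase, was 2.5-fold lower in CB (1.57 to 4.07), on 27 counts against 66, with 78.5% of its exon length shared with other genes.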
